A study of Homo sapiens with 20 samples.

Results

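Regions that were called as m6A peaks only in the cisplatin-sensitive line T24 were described, and they numbered 457 of the 43676 merged regions of the 10 peak lists (1.05%). A region was taken when a peak of each of the 5 T24 libraries overlapped it by at least 1 bp and no peak of the 5 T24R2 libraries did. The opposite set, called in each T24R2 library and in no T24 library, held 1320 regions (3.02%), and 9577 regions were called in all 10 libraries. The regions were chosen by the presence or absence of a called peak, so their presence in T24 and absence in T24R2 is a description and carries no test. By gene annotation, 294 of the 457 regions had their median summit in an exon, and these exons belonged to 247 genes. The genes with most regions were the noncoding RNA XACT with 6, and IGSF10 and FAT3 with 4 each.

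The series compared 2 human bladder cancer cell lines by methylated RNA immunoprecipitation sequencing (MeRIP-seq), in which an antibody that binds N6-methyladenosine (m6A) pulls down fragments of RNA. T24 is sensitive to cisplatin, and T24R2 was derived from T24 by serial exposure to cisplatin and was kept in medium with the drug. Both lines were labelled wild type and were collected on day 3, and each is a single line. There were 5 pull-down (IP) libraries and 5 input libraries per line, 20 samples in all, and nothing in the labels says that replicates came from separate cultures, so a p-value here measures only the spread between these libraries. The lists held between 17203 and 33120 peaks, and their depth is unknown because they hold no read counts. The 5 T24 lists held 17203 to 22901 peaks and the 5 T24R2 lists 22671 to 33120.

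m6A is placed on nascent RNA polymerase II transcripts by a nuclear methyltransferase complex built around METTL3 and METTL14, most often in long internal exons and near stop codons. Reader proteins that bind it alter the splicing, stability and translation of the RNA. The modified adenosine sits in the DRACH motif, where H stands for A, C or T, R for A or G and D for A, G or T. A MeRIP peak needs both a transcript and its methylation, so for the regions described here a lower transcript level in T24R2 and less methylation in T24R2 cannot be told apart.

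The sequences below lie under the regions that the results turn on. They show the DRACH site nearest to the summit, with 10 bases on each side, in the best-ranked region of 5 genes with 3 or more exonic T24-only regions and, with 1 region per gene, in 6 of the best-ranked regions of other genes. They are read 5′ to 3′ on the strand of the gene from the hg38 genome, and capitals mark the DRACH match.
XACT, noncoding exon, chrX:113857958-113857982, minus strand: tgaacagtggGAACAcatggacaca
FAT3, coding sequence, chr11:92801607-92801631, plus strand: cattcaatatTGACAgcaacacggg
IGSF10, coding sequence, chr3:151443120-151443144, minus strand: gaagagcgagTGACCagccccagga
GPR173, coding sequence, chrX:53077054-53077078, plus strand: tgcatggcctGGACCctgtctgtgg
LAYN, coding sequence, chr11:111544109-111544133, plus strand: catctgatggTGACTtctggattgg
THEMIS2, coding sequence, chr1:27882829-27882853, plus strand: cccggtggctGGACCtgactgttgt
TNFRSF19, 3′UTR, chr13:23673577-23673601, plus strand: taacaagaaaAGACTccaggccgac
TLR2, coding sequence, chr4:153705078-153705102, plus strand: tttttgatgaGAACAatgatgctgc
NRXN3, 3′UTR, chr14:79862052-79862076, plus strand: agaactgctgGAACTatgaaatggg
IFNLR1, coding sequence, chr1:24157203-24157227, minus strand: cagaaattgaGGACAgcgatgcggg
GBGT1, 3′UTR, chr9:133153421-133153445, minus strand: aggccactgtGAACTgcagagggct
The matched adenosines lay between 1 and 37 nt from the median summit of their regions. A match describes the sequence and does not show which adenosine was methylated.

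Across the exonic T24-only regions whose gene strand was clear, 262 of 281 (93.2%, 95% Wilson interval 89.7 to 95.6) held DRACH within 50 nt of the summit on the sense strand. The antisense strand of the same windows held it in 70.8%. The exonic regions called in all 10 libraries gave 93.0% and 70.7%. Among T24-only regions in lncRNA exons the sense share was 97.9% (46 of 47) against 72.3% antisense, and in 5′UTRs it was 82.1% (23 of 28) against 64.3%. Intronic T24-only regions held DRACH on the sense strand of the host gene in 91.6% of 95 regions and on the antisense strand in 78.9%. Intronic regions called in all 10 libraries gave 89.3% and 73.1% of 703, and intronic T24R2-only regions gave 80.7% and 83.7% of 306. The interval covers counting error only, and no test was run between the sets.

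The T24-only regions were spread over all parts of transcripts. Coding sequence (CDS) held 103 (22.5%), 3′UTRs 92 (20.1%), 5′UTRs 28 (6.13%), noncoding exons 71 (15.5%), introns 114 (24.9%) and intergenic sequence 40 (8.75%), and 9 lay on contigs left unannotated here. In the set called in all 10 libraries CDS made up 47.8%, the 3′UTR 27.0% and introns 8.13%. Of the T24R2-only regions, 264 of 1320 lay in CDS, 16.4% in 3′UTRs, 26.7% in introns and 2.80% in 5′UTRs, and 19.3% were intergenic. The T24-only and T24R2-only sets thus both had a lower CDS share and a higher intron share than the set called in all libraries. Over all 43676 merged regions CDS made up 32.0%, introns 24.3% and intergenic sequence 9.63%. The intron share of the T24-only set was thus near that of merged regions in general, and its CDS share was lower. Among T24-only regions of coding genes with a defined stop codon distance, 80 of 203 (39.4%) lay within 400 nt of the stop codon, against 40.9% of T24R2-only regions and 41.2% of regions called in all 10 libraries. The exon under a CDS region had a median length of 1756 nt in the T24-only set, 912.5 nt in the T24R2-only set and 1385 nt in the set called in all libraries. The median width was 451 bp for T24-only regions and 442 bp for T24R2-only regions, and 715 bp for regions called in all libraries.

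By the rule no T24R2 peak overlaps a T24-only region. The distance to the nearest one is a description, and no background of it was computed. The median distance from a region to the nearest T24R2 peak was 33247 bp over the 455 regions with a T24R2 peak on the same chromosome or contig. For 310 regions it exceeded 10 kb, for 41 it was within 1 kb and for 2 within 100 bp, with a smallest distance of 5 bp. The rule has a sharp edge, and 139 regions called in 5 T24 libraries and 1 T24R2 library and 319 called in 4 T24 libraries and no T24R2 library lay just outside it. The median percentile, defined next, was 66.4 for the T24-only regions, 60.9 for the former and 46.8 for the latter.

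To rank regions, the fold enrichment of IP over input given by the peak caller was turned into a percentile within each library's own list, where 100 is the most enriched peak of the list. The rule requires a call in every T24 list, which by itself favours well-ranked regions. With that limit, T24-only regions did not sit at the bottom of the lists. Their median percentile was 71.1, 60.0, 65.5, 67.4 and 67.7 in T24 replicates 1 to 5, and the median of regions called in all 10 libraries in the same lists was 65.8, 62.0, 67.5, 71.6 and 65.5. Between 282 and 333 of the 457 lay above the 50th percentile, and between 53 and 87 lay in the top 10 percent of a list. Ranks varied between replicates. The median range of a region over the 5 T24 lists was 43.8 percentile points, close to the 43.5 of regions called in all libraries, and Spearman's rho between pairs of T24 lists ran from 0.362 to 0.468 across regions, which are not independent.

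In most of the genes no exonic region at all was called in T24R2. Of the 247 genes, 186 (75.3%) had no T24R2 call in any exonic region. In 86 of the 247 the T24-only region was the only exonic region in any list. For these 86, and for genes whose exonic regions were all T24-only, the lack of a T24R2 call was fixed by the rule. Over all 6295 genes with an exonic region called in each T24 library, 186 (2.95%) had no T24R2 call, and by the rule these are the same 186 genes. Of the 605 genes with an exonic T24R2-only region, 345 (57.0%) had no T24 call. A further 61 of the 247 genes kept a T24R2 call elsewhere, 34 of them in a region called in all 10 libraries. The genes comprised 196 protein-coding genes, 43 lncRNA genes and 8 of other types. The lists carry no strand, and at 24 of the summits exons of more than 1 gene overlapped, while 13 of the 294 exonic regions had an exon on the other strand.

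XACT, a long noncoding RNA known for coating the active X chromosome in human pluripotent cells, held 23 exonic regions, and none had a T24R2 call. Of these 23, 6 were called in all T24 libraries and 5 in 4 of them. The best-ranked region (chrX:113857705-113858545) stood at percentiles 87.1, 96.1, 95.3, 93.5 and 81.0 in T24 replicates 1 to 5, a fold enrichment of 14.5 ± 2.87 (SD, n = 5). The lowest-ranked (chrX:114042208-114042521) stood at 11.5, 17.4, 73.8, 33.4 and 9.30. The first was high in every list, whereas the second was high in replicate 3 alone. From each of the 6 regions the nearest T24R2 peak lay at least 854848 bp away.

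IGSF10, which encodes a large secreted protein with immunoglobulin domains, held 8 exonic regions without a T24R2 call and 4 of them were T24-only, all in CDS. The region at chr3:151442991-151443676 in exon 7 stood at percentiles 97.9, 96.5, 85.3, 97.2 and 98.5, and the region at chr3:151437611-151438679 in exon 8 at 78.7, 71.7, 93.8, 95.5 and 86.8. Another region, in the long exon 6 (chr3:151445662-151446178) stood at 28.1, 13.9, 11.7, 8.02 and 4.90. Regions of the same transcript thus ranked at opposite ends of the same lists, with fold enrichments of 17.5 ± 3.31 and 4.22 ± 0.950 (SD, n = 5) for the exon 7 and the exon 6 region. An intronic T24-only region of the gene stood between 75.7 and 90.5.

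FAT3 encodes an atypical cadherin with a very large extracellular part. Its 4 regions lay in CDS, 3 of them in the 4074-nt exon 10. The best-ranked region (chr11:92801241-92801890) stood at percentiles 89.3, 88.6, 81.2, 81.1 and 94.6 in the 5 T24 lists. The region in exon 22 (chr11:92866910-92867339) split the libraries, at 23.7 and 12.5 in replicates 1 and 2 and 90.2, 72.8 and 87.3 in replicates 3 to 5. Of the 8 exonic regions of the gene, 1 had a T24R2 call, in a single library.

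Among the genes with 3 regions, GPR173 encodes an orphan G protein coupled receptor, and its regions lay in the 5′UTR, the CDS and the 3′UTR. The CDS region (chrX:53076494-53078055) stood at percentiles 90.8, 56.2, 98.0, 97.3 and 96.3. SLC52A3 encodes a riboflavin transporter, and its best-ranked region stood at 94.4, 91.0, 46.0, 99.6 and 93.6, low in replicate 3 alone. In LAYN, which encodes the hyaluronan receptor layilin, the 3 CDS regions ranged from 9.90 to 85.5. In ZNF883, a zinc finger gene, the 3 regions lay in the long last exon and the best-ranked stood between 74.0 and 86.1. None of these 4 genes had a T24R2 call in an exonic region. The 3 exonic regions of GPR173 were all T24-only, so for this gene the rule fixed it.

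**Figure D1:**
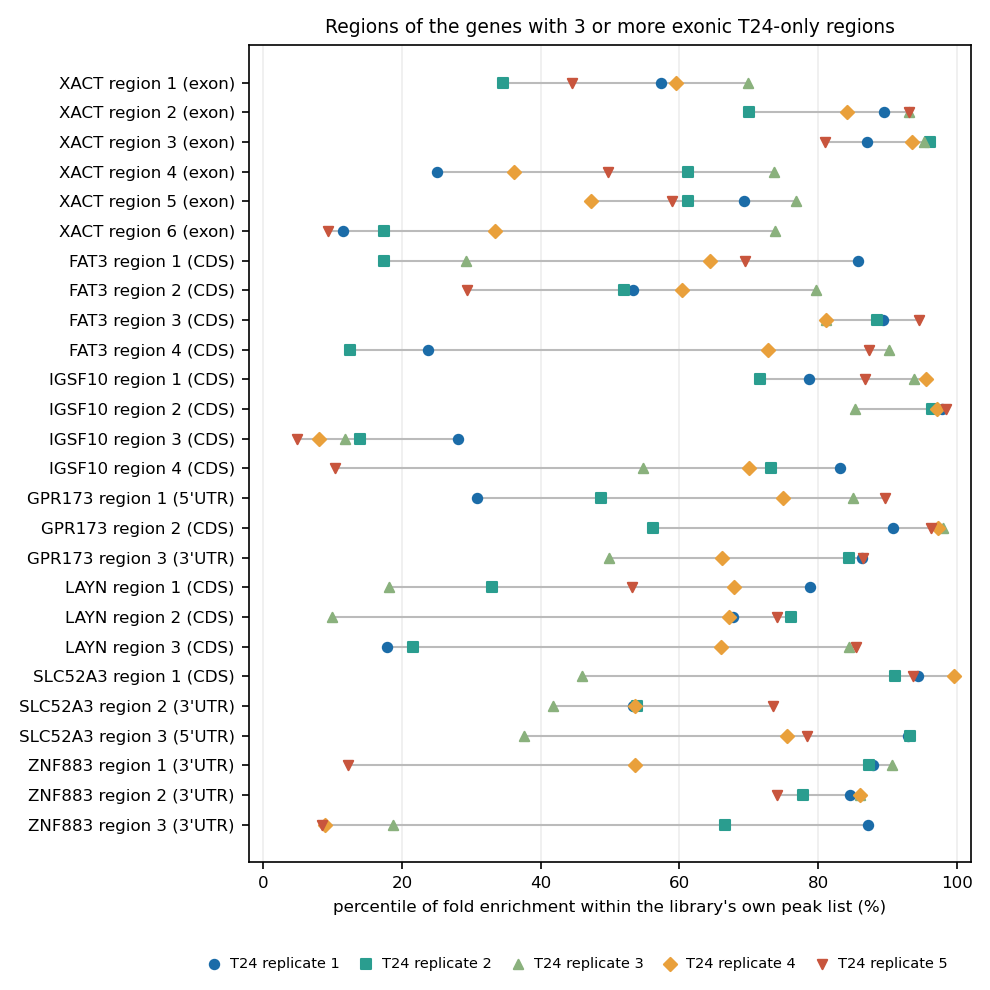
Percentile of fold enrichment within each of the 5 T24 peak lists (x axis, %) for each exonic T24-only region of the 7 genes with 3 or more such regions (y axis, numbered by position on the chromosome). Points are libraries and grey lines span their range. XACT region 3, FAT3 region 3 and IGSF10 region 2 stayed above 80 in every library, and IGSF10 region 3 stayed below 30.

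A further 28 genes held 2 exonic T24-only regions each, so that 35 genes accounted for 82 of the 294 exonic regions. Cell surface and signalling genes among them were TLR2 (a receptor for bacterial lipoproteins), F2RL1 (protease-activated receptor 2), HCAR1 (the lactate receptor), GPR4 (a proton-sensing receptor), LRRC32 (which docks latent TGF-beta), KIRREL3 (an adhesion molecule), ANO9, CALHM2, MELTF and LMTK3. Enzymes of glycans were HAS2 and HAS3, which make hyaluronan, and GALNT5, which starts mucin-type O-glycans. Regulators in the nucleus were ELF3, PAX5, HOXB8, ZNF518A and BCL7A, and STON2, THEMIS2, FRMD4B and RIPOR3 act in trafficking, signalling or the cell cortex. Noncoding members were TP73-AS1, GATA3-AS1, LINC01322, LINC01694, ENSG00000290045 and the pseudogene ZNF702P. Of the 6 exonic regions of ANO9, 4 had a T24R2 call. The region at chr11:431911-432532 was called in 4 T24R2 libraries and in no T24 library. The paper lists its 2 differential exon peaks of ANO9 as more methylated in T24R2, and whether they overlap these regions was not tested. BCL7A, MELTF, RIPOR3, ZNF702P, HAS3 and HOXB8 also had a T24R2 call in another exonic region.

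The hyaluronan synthase genes HAS2 and HAS3 each held 2 regions but differed in their other regions. The 3′UTR region of HAS2 stood at percentiles 82.6, 91.8, 72.5, 90.3 and 6.97, and its CDS region at 38.2, 53.6, 43.6, 81.5 and 84.7. HAS2 had 4 exonic regions and no T24R2 call. In HAS3, 3 of the 6 exonic regions had a T24R2 call, and 1 of them was called in all 10 libraries. Its T24-only regions lay in the 3′UTR (chr16:69114444-69115314 and chr16:69116744-69117347) with fold enrichments of 5.82 ± 0.495 and 5.84 ± 0.807 (SD, n = 5), and the second lay 677 bp from a T24R2 peak.

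Exonic regions were ordered by their lowest percentile over the 5 lists. THEMIS2, an adaptor of B cell and macrophage signalling, led with a CDS region at 99.0, 99.8, 97.9, 95.8 and 98.2, and its 3′UTR region stood at 95.3, 90.8, 94.6, 99.3 and 88.9. TNFRSF19, a receptor of the TNF receptor family, had a 3′UTR region at 99.5, 99.0, 97.7, 95.7 and 99.5. These regions were among the most enriched peaks of every T24 list, with fold enrichments of 21.0 ± 3.61 for the THEMIS2 CDS region and 21.3 ± 3.86 for TNFRSF19 (SD, n = 5). The TLR2 region near the stop codon (chr4:153704859-153705436) stood at 97.8, 97.4, 96.7, 89.8 and 91.2. The NRXN3 region, in the 3′UTR of a presynaptic adhesion gene, stood at 94.7, 99.6, 89.2, 96.2 and 92.7. The IFNLR1 region, in the CDS of the receptor chain of lambda interferons, stood at 92.8, 89.0, 98.8, 88.4 and 96.8. GBGT1, which encodes a glycosyltransferase of globoside, had the largest mean fold enrichment of the exonic T24-only regions, 22.4 ± 8.04 (SD, n = 5). The other regions of the leading 15 lay in GRIN2D (an NMDA receptor subunit), ESRP2, DNAJC22, IGSF10, EMILIN2 (a matrix glycoprotein), ADM2 (a peptide hormone), SOWAHB and FAT3, with lowest percentiles from 81.1 to 87.7.

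At the other end, 4 of the 5 exonic regions with the lowest minimum lay in KIRREL3, ELF3, MCAM and VIM. The region of MCAM, a cell adhesion molecule, stood at percentiles 17.2, 1.98, 16.7, 37.0 and 15.2, with a fold enrichment of 4.46 ± 1.20 (SD, n = 5), in the lower part of every list. The ELF3 CDS region stood at 8.83, 2.39, 1.97 and 8.06 in replicates 1 to 4 and at 83.7 in replicate 5. The 5′UTR region of VIM, the mesenchymal intermediate filament gene, stood at 45.4, 2.33, 2.77, 48.6 and 3.44 and lay 205 bp from a T24R2 peak.

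**Figure D2:**
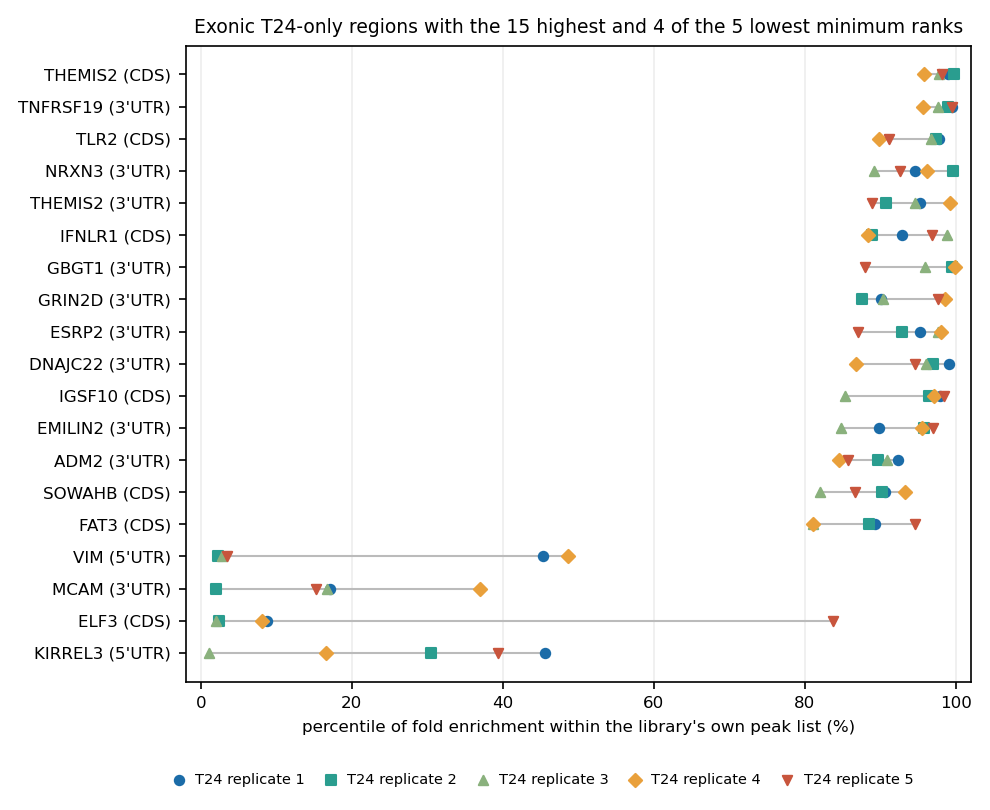
Percentile of fold enrichment within each of the 5 T24 peak lists (x axis, %) for the 15 exonic T24-only regions with the highest lowest percentile and 4 of the 5 with the lowest (y axis, gene and part of the transcript). Points are libraries and grey lines span their range. The 15 leading regions stayed above 81 in every library, whereas MCAM stayed below 38 and ELF3 spanned 1.97 to 83.7.

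Gene groups were then compared by the share of genes with any exonic region in any list that held a T24-only region. Each group is a list of protein-coding genes set by the start of the gene symbol or by name, so genes of the same kind with other symbols are not counted in it. The groups were chosen with earlier results of these data known, which limits what the shares can show. Over all 12234 such genes the share was 2.02% (247 genes), and 4.95% (605 genes) held a T24R2-only region. The list of keratin, junction and epithelial regulator genes held 5 of 33 (15.2%), and none of the 33 held a T24R2-only region. These were ESRP2, an epithelial splicing regulator, CLDN3, a tight junction claudin, the transcription factors ELF3 and GATA3, and the gap junction gene GJA3. GJA3 was the only gene of the 5 with a T24R2 call in another exonic region. The CLDN3 region (chr7:73769098-73769516) stood at percentiles 90.1, 88.4, 74.7, 96.2 and 96.3, and the ESRP2 region (chr16:68229273-68229846) at 95.3, 92.9, 97.6, 98.1 and 87.0. Both were high in every T24 library. The GATA3 3′UTR region stood at 40.1, 57.5, 74.0, 79.0 and 49.5, and the antisense gene GATA3-AS1 held 2 T24-only regions with lowest percentiles of 45.8 and 62.7. EHF, an ETS factor of epithelia that is outside the list and was picked after its values were seen, had a 3′UTR region at 88.6, 79.4, 20.1, 84.4 and 70.0.

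The receptor list, with GPR, ADGR, LPAR, F2R, ADRA and similar symbols, held 10 of 69 (14.5%) T24-only genes and 4 T24R2-only genes (5.80%). By role these included receptors for proteases (F2RL1 and F2R), for lysophosphatidic acid (LPAR5 and LPAR6), for protons (GPR4) and for adrenaline (ADRA1D), the orphan receptors GPR173 and GPR158, and the adhesion receptor ADGRB2. The F2RL1 3′UTR region stood at 71.4, 85.1, 76.2, 87.4 and 69.1, and 7 of the 10 genes had no T24R2 call. The receptors HCAR1, NTSR1, GIPR, CCRL2 and OR51M1 lie outside this list and held T24-only regions as well. The cadherin and protocadherin list held 8 of 59 (13.6%), against 2 genes (3.39%) with a T24R2-only region. These were FAT3, CDH4, CDH5, CDH6, CDH8, PCDHB2, PCDHB16 and PCDHGA4, and in 4 of the 8 no exonic region had a T24R2 call. The cytokine and chemokine list, with IL, CCL, CCR, CXC, TNFRSF, TLR and similar symbols, held 5 of 76 (6.58%), TNFRSF19, TLR2, CCR7, TNFRSF1B and CCL28, all without a T24R2 call, and 6 genes (7.89%) with a T24R2-only region. Of the 196 protein-coding genes with a T24-only region, 76 fell into any of the 22 groups, and IFNLR1 and CCRL2 are among those outside the cytokine list. No test was run on these shares.

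The list of HOX, PAX and similar homeobox symbols held 3 of 74 (4.05%), PAX5, HOXD10 and HOXB8, against 6 genes (8.11%) with a T24R2-only region. The homeobox genes EN2, ISL2 and PROX1, outside the list, held 1 T24-only region each. The best-ranked PAX5 region, in the 3′UTR of a B cell transcription factor, stood at percentiles 78.1, 84.2, 98.8, 93.0 and 90.0, and the HOXD10 CDS region at 87.0, 82.3, 72.5, 96.5 and 95.4. Genes with ZNF, ZFP, ZBTB, KLF and similar zinc finger symbols held 9 of 537 (1.68%) and lncRNA genes 43 of 1972 (2.18%), near the share over all genes. A T24R2-only region was held by 13 (2.42%) of the former and 117 (5.93%) of the latter. The list of DNA damage, apoptosis and ferroptosis genes held 3 of 104 (2.88%), TP73, CASP10 and BCL2A1, with lowest percentiles from 3.14 to 10.3. In this list 2 genes (1.92%) held a T24R2-only region. In the TP73 CDS region the libraries split, at 3.69, 3.14, 7.37 and 24.4 in replicates 1 to 4 and 94.3 in replicate 5.

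**Figure D3:**
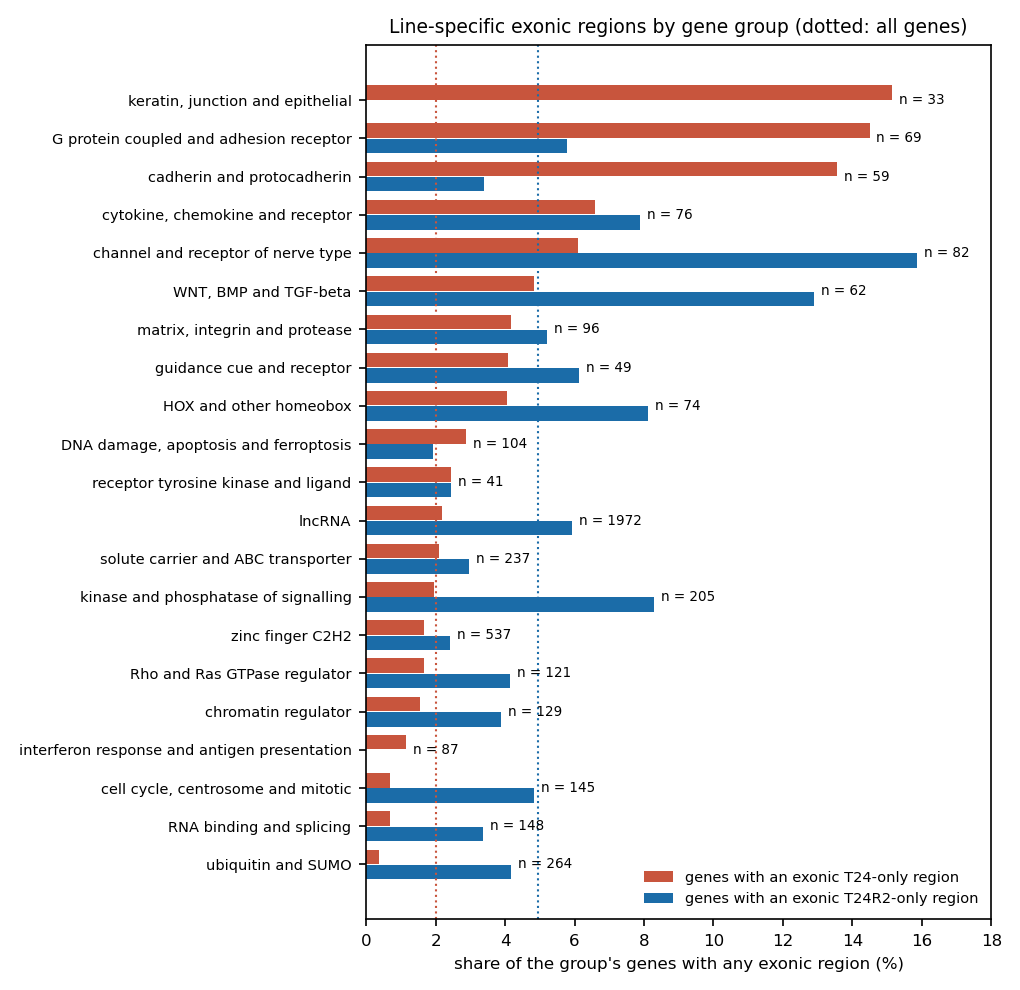
Share of the genes of each group with any exonic region (x axis, %) that held an exonic T24-only region (red) or T24R2-only region (blue), with the number of genes in each group written at the bars and the shares over all genes, 2.02% and 4.95%, as dotted lines. Groups are lists by gene symbol. The keratin, junction and epithelial list, the receptor list and the cadherin list had the longest red bars among the groups of 10 or more genes that are drawn.

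Epithelial and urothelial markers were checked as a list of 12 genes. KRT7 had a region called in all 10 libraries, GATA3 was called in T24 only, and KRT8, KRT19, KRT5, UPK2, UPK3A, EPCAM and CDH1 had no exonic region in any list. KRT18, PPARG and UPK1A were called in at most 2 libraries of a line. Of the 3 mesenchymal genes, CDH2 and ZEB1 had regions called in all 10 libraries. VIM had none called in all 10, and of its 2 exonic regions 1 was T24-only, while the largest number of T24R2 libraries that called a VIM region was 4. Among blood, endothelial and fibroblast genes, PTPRC, CD3E and COL1A2 had none, COL1A1 was called in at most 1 T24 library, and PECAM1 was called in up to 4 T24 and 5 T24R2 libraries. A missing peak does not show that a gene is not expressed, and the part of other cells in the lists was not tested.

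Some T24-only regions lay close together. With neighbours at most 1 Mb apart joined, 158 of the 457 (34.6%) lay in 37 blocks of 3 or more, and 8 blocks with 34 of these regions held no T24R2 call on any of their merged regions. Merged regions of every kind gather in genes, and no background of this share was computed. The X chromosome block of XACT and the neighbouring lncRNA gene ENSG00000286072 spanned 858 kb and held 9 T24-only regions among 43 merged regions, none with a T24R2 call. The other blocks without such a call lay at LINC01322, FAT3, LAYN, GATA3 with GATA3-AS1, CDH8, RIN2 and GPR173. At LINC01322, RIN2 and GPR173 every merged region of the block was T24-only, so the lack of a call was fixed by the rule. A block ends at its outermost T24-only regions, and FAT3 and RIN2 had T24R2 calls at exonic regions outside their blocks. The chromosome 14 block of RALGAPA1, LINC00609 and PTCSC3 spanned 368 kb and held 10 T24-only regions among 14 merged regions, 1 of them with a T24R2 call. The chromosome 12 block of LINC02231, HMGA2 and IRAK3 held 8 among 36, of which 12 had a T24R2 call. The IGSF10 block held 7 among 20, with 1 T24R2 call.

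The chromosome 20 block was of another kind. It spanned 2271 kb and its 10 T24-only regions lay among 195 merged regions, 154 with a T24R2 call and 43 called in all 10 libraries. Its genes were CDH4, DIDO1, NTSR1, RTEL1 and SLC17A9. By chromosome, the share of merged regions that were T24-only was highest on chromosome 20 (34 of 1402, 2.43%) and, leaving aside the Y chromosome and mitochondrial DNA with 4 and 3 merged regions, lowest on chromosome 6 (6 of 2074, 0.289%). Copy number was not measured here, and a gain or loss of DNA between the lines and a change in transcription or methylation cannot be told apart.

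**Figure D4:**
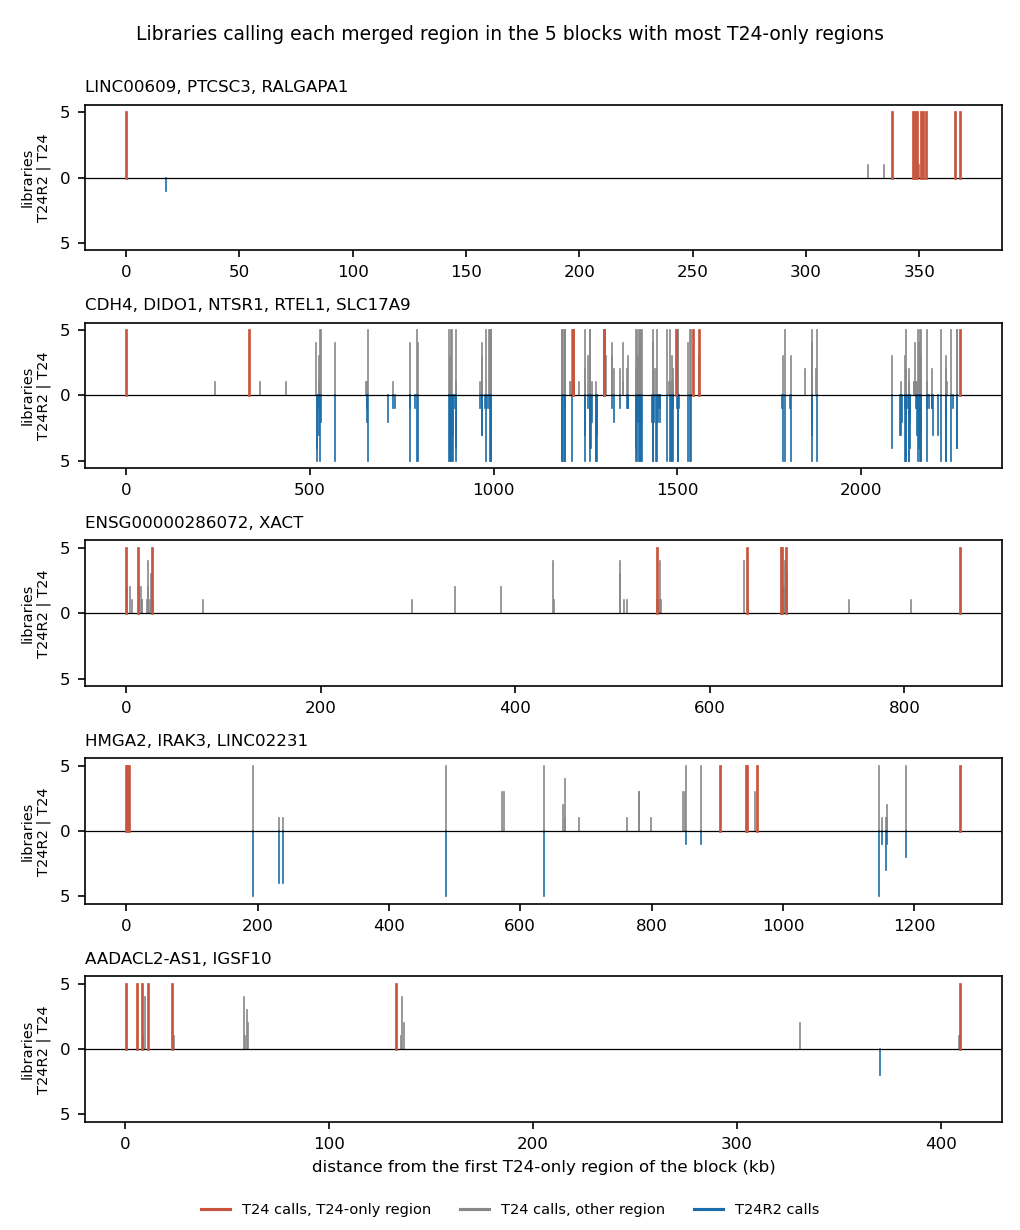
Number of T24 libraries (upward, 0 to 5) and T24R2 libraries (downward, 0 to 5) that called each merged region, by distance from the first T24-only region (x axis, kb), in the 5 blocks with most T24-only regions. Red lines are T24-only regions, grey lines T24 calls at other regions and blue lines T24R2 calls. The XACT block has no blue line, and the CDH4 to RTEL1 block has 154 regions with T24R2 calls.

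The 114 intronic T24-only regions lay in 85 host genes, 24 of which had an exonic region called in all 10 libraries. LINC00609 on chromosome 14, whose body overlaps PTCSC3, held 7, between 36146442 and 36161968. The best-ranked of them (chr14:36160732-36161968) stood at percentiles 77.6 to 97.7. None of the 9 intronic regions assigned to LINC00609 had a T24R2 call. Where gene bodies of the same type overlapped, the host was set by symbol order, and the lists carry no strand. HMGA2, an architectural chromatin protein, held 4, and the one at chr12:65937973-65938264 stood at 92.5, 86.2, 91.5, 91.3 and 90.1, with little spread. Of the 5 intronic HMGA2 regions 1 had a T24R2 call, and neither of the 2 exonic regions did. ZNF69, a zinc finger gene, also held 4, and the one at chr19:11910615-11911726 stood at 98.6, 99.0, 98.9, 98.0 and 99.2, although it ended 110 bp from a T24R2 peak. LINC02231, LINC01322, LINC01687, DCBLD2 and ENSG00000285471 held 3 each.

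A value that the rule did not use was the rank of the regions that the same genes kept in both lines. Of the 247 genes, 34 had 46 exonic regions called in all 10 libraries, and the percentile of each was compared between lines by limma with Benjamini-Hochberg adjustment over all 9577 such regions. Over all of them, 16 ranked higher in T24 (0.167%) and 70 lower (0.731%), with a median difference of -4.84 percentile points. Without T24R2 replicate 2 these counts were 5 and 21. The median percentile of the shared regions was 62.0 to 71.6 in the T24 lists and 67.9 to 77.7 in the T24R2 lists. With percentiles taken among the shared regions alone the counts were 48 and 66. On the whole-list percentile, 1 of the 46 was higher and 1 lower, with a median difference of -4.99 points. At an unadjusted limma p under 0.05, 4 of the 46 were higher and 9 lower, against 300 and 1033 of all 9577. The groups did not overlap in 6 of the 46, 2 higher and 4 lower, against 83 and 348 of all.

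The region that ranked higher in T24 lay in the 3′UTR of CDH4, which encodes R-cadherin (chr20:61936627-61937457). It stood at percentiles 97.0, 89.7, 96.2, 98.9 and 97.5 in T24 and 44.3, 57.0, 37.3, 64.7 and 35.5 in T24R2. Every T24 library was above every T24R2 library, and the difference was 48.1 points (95% interval 32.5 to 63.7, limma adjusted p = 0.0124, two-sided exact permutation p = 0.00794, the smallest that 5 against 5 libraries can give). The T24-only CDS region of CDH4 (chr20:61743472-61743743) ranked low in the T24 lists, at 2.70, 46.1, 49.9, 61.3 and 11.1.

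The region that ranked lower in T24 lay in HOXB8. HOXB8, a homeobox transcription factor, held T24-only regions in the 5′UTR and in the first part of the CDS (chr17:48614450-48614884, percentiles 73.7, 76.3, 93.3, 36.5 and 96.6). Its remaining exonic region (chr17:48612882-48613561, CDS) was called in all libraries and stood at 39.1, 31.8, 11.6, 25.1 and 7.10 in T24 and 74.8, 95.1, 58.1, 99.3 and 97.0 in T24R2. The difference was -61.9 points (95% interval -83.3 to -40.5, limma adjusted p = 0.0160, exact permutation p = 0.00794), and the groups did not overlap. The T24-only CDS region lay 900 bp from the nearest T24R2 peak. The call on the kept region rested on the scale and on 1 library, since ranks of −log10 q gave a difference of -2.80 points (limma adjusted p = 0.899) and without T24R2 replicate 2 the limma adjusted p was 0.0552.

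Other kept regions missed the threshold after adjustment. In HS3ST1, a heparan sulfate sulfotransferase, the kept CDS region stood at 52.6 to 75.8 in T24 and 90.1 to 99.1 in T24R2, a difference of -28.8 points (limma adjusted p = 0.0535). In TP73, a p53 family transcription factor, the kept 3′UTR region (chr1:3732709-3734560) stood at 94.4, 77.6, 99.5, 97.6 and 98.7 in T24 and 75.3, 59.7, 23.0, 32.9 and 66.4 in T24R2, a difference of 42.1 points (limma adjusted p = 0.0895). The groups did not overlap in either. The kept region with the smallest limma p in each of RIN2, DLGAP1-AS2, MBP, CHD7, DIDO1 and SH3PXD2A had a limma adjusted p between 0.144 and 0.333, and the other kept regions of RIN2, DLGAP1-AS2, CHD7 and DIDO1 had larger values.

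**Figure D5:**
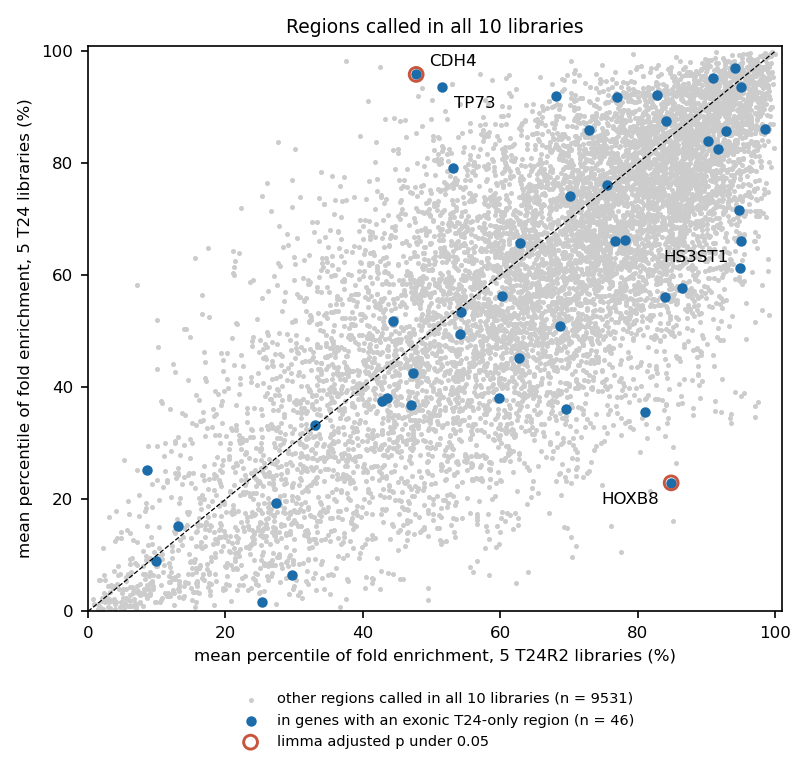
Mean percentile of fold enrichment over the 5 T24R2 libraries (x axis, %) and the 5 T24 libraries (y axis, %) for each of the 9577 regions called in all 10 libraries, with the 46 regions of genes that also hold an exonic T24-only region in blue and the 2 with a limma adjusted p under 0.05 circled. CDH4 lies far above the dashed line of equal rank (95.8 against 47.7) and HOXB8 far below it (22.9 against 84.8).

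Only 3 genes held exonic regions of both line-specific sets. SH3PXD2A, an invadopodium scaffold, PSD4, an ARF exchange factor, and CSNK1D, a casein kinase, each held 1 T24-only and 1 T24R2-only region beside regions called in all 10 libraries.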

How the data were processed

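The analysis used the 10 MACS2 peak lists of the IP libraries and their merged list. The inputs entered only through the authors' peak calling. Reads had been aligned to hg38 with STAR 2.7.0, uniquely mapped reads without duplicates were kept with SAMtools 1.10, and peaks were called per library with MACS2 3.0.0a6, with tools and versions taken from the submitters' processing notes and the study's methods. The fold enrichment deposited for each peak is a ratio, the IP pileup over that of the input around the peak. The authors' −log10 p-values and −log10 q-values and the caller's score were deposited as well, and the −log10 q-value was used only in alternatives. No list holds read counts, so depth and its effect on which peaks are called are unknown.

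Overlaps were computed with pandas 2.3.3 and bedtools 2.31.1. The median summit of a region was assigned with GENCODE 44 to CDS, UTR, noncoding exon, intron or intergenic sequence, protein-coding genes first. Where a library had several peaks in a region, the most enriched was ranked. Percentiles of the 9577 shared regions were tested with limma 3.58.1 (R 4.3.3) in a fit of 5 against 5 libraries, checked on simulated data, and single regions by a two-sided exact permutation test over 252 assignments. DRACH was searched in the genome within 50 nt of the summit for exonic regions on 1 strand.

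The members, gene groups and tests were chosen with earlier results of these data known. Named genes were those with 2 or more exonic T24-only regions, the 15 best-ranked and 5 lowest-ranked exonic regions, up to 4 genes per group, genes of the leading blocks, hosts of 3 or more intronic regions and the 10 kept regions with the smallest limma p; others are named as such or complete a count. Alternatives were the same number of peaks per library, stricter lists, other overlap and call rules, other rank scales, a replicate block, other motif windows and leaving out each library. Some items that these rules select are not reported here.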

Additional observations from a re-analysis of the deposited data

Results flagged for a closer look

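A library far from the others was looked for by Dixon's criterion in 70 sets of 5 libraries, and 9 stood out. By chance alone about 5 percent of sets of normally distributed values would. Percentiles are bounded, so the 9 cannot be read against that rate. The sets were summaries of the lists, the 10 kept regions with the smallest limma p, the 15 best-ranked exonic T24-only regions and the other T24-only regions with a value printed for each T24 library, some of which are printed for being low. The number of peaks in T24R2 was 22671 to 25603 in 4 libraries and 33120 in replicate 5 (gap over range 0.719). Without that library 516 regions were T24-only, against 457. The kept 3′UTR region of TP73 stood at the 77.6th percentile in T24 replicate 2 and between 94.4 and 99.5 in the others (0.769). The T24-only IGSF10 region of exon 7 stood at 85.3 in T24 replicate 3 and between 96.5 and 98.5 in the others (0.846). In 6 more T24-only regions 1 T24 library stood apart. Replicate 5 was the high one in the CDS regions of ELF3 (83.7 against 1.97 to 8.83, gap over range 0.916) and TP73 (94.3 against 3.14 to 24.4, 0.767), and the low one in the 3′UTR region of HAS2 (6.97 against 72.5 to 91.8, 0.772). Replicate 3 was low in the best-ranked region of SLC52A3 (46.0 against 91.0 to 99.6, 0.841) and in the 3′UTR region of EHF (20.1 against 70.0 to 88.6, 0.729). Replicate 2 was low in the CDS region of GPR173 (56.2 against 90.8 to 98.0, 0.828).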

How the results depend on the processing

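When every list was cut to its 17203 peaks with the largest −log10 q, 497 regions were T24-only and 324 of the 457 remained. Of the 45 genes with 2 or more exonic regions or among the 15 best-ranked, 44 kept at least 1 region, ENSG00000290045 being the exception. With peaks of −log10 q of at least 5 alone, 317 regions, 202 exonic, in 177 genes were T24-only, and 281 of the 457 remained. A peak cover of at least 50% of the region left 131 regions, 90 exonic, in 81 genes. Allowing 4 of 5 T24 libraries and 1 T24R2 library gave 1090 regions, 655 exonic, in 535 genes. Leaving out each library in turn gave 472 to 567 regions and 301 to 350 exonic regions, more because fewer lists must meet the rule. The DRACH share was 75.1% in a window of 25 nt and 51.6% for GGAC. Blocks numbered 34 at 500 kb and 42 with lists of equal length.

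For regions called in all libraries the counts of higher and lower calls depended on the scale, and the cause was not tested. They were 30 and 46 on median-centred log2 fold enrichment, 79 and 218 on the percentile of −log10 q, and 48 and 66 on the percentile among shared regions, against 16 and 70. Leaving out each library gave 5 to 16 and 21 to 106. The higher count was 9 without T24 replicate 3, 5 without T24R2 replicate 2 and 10 without T24R2 replicate 5. The lower count was 45, 38 and 106 without T24 replicates 2, 3 and 4, and 21, 30 and 33 without T24R2 replicates 2, 4 and 5. In the 46 regions of T24-only genes the counts were 2 and 1, 5 and 0, and 2 and 2 on the same scales, and 1 higher and 0 to 1 lower without each library. HS3ST1 turned from -28.8 to 0.409 on the percentile of −log10 q (limma adjusted p = 0.968) and passed on the percentile among shared regions (-39.3, adjusted p = 0.0292). HOXB8 was -2.80 on the percentile of −log10 q (limma adjusted p = 0.899) and passed on the percentile among shared regions (-58.5, adjusted p = 0.0342). TP73 passed on the 3 other scales, with limma adjusted p from 0.0137 to 0.0197, and CHD7 on −log10 q (45.1, adjusted p = 0.00441).

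Same-numbered libraries of the lines did not deviate together (r from -0.0304 to 0.111, over 0.1 in 1 of 5 pairs), so the numbers were not taken as pairs. With a replicate block 0 regions were higher and 0 lower, over all regions and over the 46, and CDH4 and HOXB8 each had a limma adjusted p of 0.109. Depth limits every absence, since a region missing from the T24R2 lists may lie under their detection limit.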
